A study of Mus musculus with 16 samples.

Results

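Thy1, Pdgfra, Pdgfrb, Dcn, Lum, S100a4, Fn1, Fbn1, Postn and Lox, 10 genes that identify fibroblasts or build the matrix that fibroblasts secrete, were followed line by line in mouse induced pluripotent stem cells (iPSCs). The genes were chosen by name, and all 10 were listed both in the table of histone marks (43984 genes) and in the table of CpG methylation (55471 genes). In these iPSCs the presence of H3K4me3 split by the CpG content of the start sites, as it did over all genes. Mean methylation tended to be lower at start sites with more CpGs, among the members as over all genes. Dcn, Lum, S100a4 and Postn had no H3K4me3 in any line and mean methylated fractions of 0.461 to 0.702 at the start site. Fn1, Pdgfra and Thy1 had H3K4me3 in 3 or 4 lines and a start site with little methylation. Pdgfrb and Fbn1, with 44 and 36 CpGs, had H3K4me3 in 2 lines and mean fractions of 0.451 and 0.740. H3K4me3 was read over a wider stretch than methylation, and at Fbn1 that stretch takes in another start. At an adjusted p under 0.05, no member tested differed between iPSCs from fibroblasts and iPSCs from kidney tubule cells. Only 2 members could be tested for H3K4me3, 6 for H3K36me3 and 10 for methylation. With 2 lines per origin the intervals were wide. The widest difference between lines was at Lox, whose start site was almost fully methylated in 1 fibroblast-derived line and sparsely methylated in the others.

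Fibroblasts are the stromal cells that lay down connective tissue. Thy1 is a surface glycoprotein used to identify them, and Pdgfra and Pdgfrb are the receptor tyrosine kinases through which platelet-derived growth factors drive the growth of mesenchymal cells. Fn1 (fibronectin) links cells to the matrix, Fbn1 (fibrillin 1) forms the microfibrils of elastic fibres, Dcn (decorin) and Lum (lumican) are small leucine-rich proteoglycans that bind collagen fibrils, Postn (periostin) is a matricellular protein, Lox (lysyl oxidase) crosslinks collagen and elastin, and S100a4 is a calcium-binding protein also known as fibroblast-specific protein. H3K4me3 lies at the start of active or poised genes, H3K36me3 lies over bodies of transcribed genes, and methylation of CpGs around a start site is typical of silent promoters.

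The 4 lines were PTC11 and PTC12, from proximal tubule cells (PTC), and TTF1 and TTF4, from tail tip fibroblasts (TTF), which made 2 lines per origin and 1 library per line for H3K4me3, H3K36me3 and CpG methylation. The paper describes the ChIP as done in duplicate, so the spread between duplicates of a line is not seen here for these marks. All came from mice of the same line, which joins the transgenes OKMS-250, rtTAROSA (neo-in), tdTomato and SLC34a1-GCE, heterozygous for each, fed tamoxifen and 8 to 10 weeks old at collection. Every cell of these mice carries doxycycline-inducible Oct4, Klf4, c-Myc and Sox2. The Slc34a1 promoter limits Cre to proximal tubule cells, so PTC were sorted by their reporters and reprogrammed with doxycycline, whereas TTF were given Cre from outside before doxycycline. The lines were early passage, clonal and no longer needed doxycycline, and the origin cells themselves were not analysed here. The samples came from separate mice per the submitters' design, so a difference between lines of 1 origin includes clone and animal.

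Neither table gives reads or coverage, so the depth behind each value is unknown. H3K4me3 had a value at 15114 to 19990 genes per line and H3K36me3 at 20381 to 29905. H3K36me3 levels ran at a median of 1.18 to 1.60 RPKM (reads in a peak, scaled to the length of the peak and the depth of the library, minus input) in TTF1 and PTC11 and 3.88 to 4.01 RPKM in PTC12 and TTF4. Mean CpG methylation was 0.645 in TTF4, against 0.367 in PTC11, 0.374 in TTF1 and 0.477 in PTC12, over the 50657 genes with a value in all 4 lines, which sets TTF4 apart. Of 12 pluripotency genes, 9 had H3K4me3 in all 4 lines, Esrrb had none in any, and Zfp42 and Dppa5a lacked it in TTF4. Of 10 proximal tubule genes, 1 (Lrp2) had H3K4me3 in all 4 lines. Of 7 other genes that fibroblasts express (Vim, Fap, Ddr2, Acta2, Tagln, Cd44 and Pdpn), 2 had it in all 4 lines, and Fap had none in any line. With a value at 2, 5, 6 and 4 of these genes in PTC11, PTC12, TTF1 and TTF4, their levels summed to 6.73, 15.1, 21.6 and 13.4 RPKM, while the medians over the genes with a value were 3.37, 3.04, 3.48 and 3.40 RPKM. The lines were kept on mouse embryonic fibroblast feeder cells before differentiation. Whether feeder cells were present in the chromatin and DNA samples is not given in the sources used here, and their part in the values below was not tested.

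The start sites of the members differed widely in CpG content, the sequence context in which methylation was read. Within 1000 bp to either side of the start used in the table (mm10), the reference genome holds 102 CpGs at Lox, 89 at Fn1, 88 at Pdgfra, 57 at Thy1, 44 at Pdgfrb, 36 at Fbn1, 21 at S100a4, 16 at Dcn, 14 at Lum and 13 at Postn, against a median of 25 over 55348 genes. RefSeq promoters (GRCm38.p6) were matched for Pdgfra, S100a4, Fbn1 and Postn. Those shown are from the members of the lowest (Pdgfra, 0.0885) and the highest (Postn, 0.634) mean methylation among the 3 whose promoter lies outside their own exons. Each is the 250 bases before the RefSeq start, 5′ to 3′, with every CpG in capitals. Pdgfra lies at chr5:75152001-75152250 on the plus strand and Postn at chr3:54360857-54361106 on the plus strand.
Pdgfra: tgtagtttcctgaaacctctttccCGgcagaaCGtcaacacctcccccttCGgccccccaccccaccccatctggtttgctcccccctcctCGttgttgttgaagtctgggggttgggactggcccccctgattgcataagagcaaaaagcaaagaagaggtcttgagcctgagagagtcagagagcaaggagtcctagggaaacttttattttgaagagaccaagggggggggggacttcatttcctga
Postn: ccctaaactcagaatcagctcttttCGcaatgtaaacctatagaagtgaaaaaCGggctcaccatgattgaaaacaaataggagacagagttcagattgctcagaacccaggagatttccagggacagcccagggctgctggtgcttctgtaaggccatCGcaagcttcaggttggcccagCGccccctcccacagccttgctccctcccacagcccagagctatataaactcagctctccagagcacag
Each stretch holds 4 CpGs, with 37.8% of 32851 RefSeq promoters holding fewer and 92.1% holding at least 1. The wide gap between Pdgfra and Postn in CpG content therefore lies outside these bases, within the rest of the measured window. The letters TATAAA, searched on both strands, start 26 bases before the Postn start shown and 31 bases before that of S100a4. They do not occur in the 250 bases of Pdgfra or Fbn1, and occur in 12.4% of promoters of that length. Postn has another RefSeq start, 1842 bp from the start in the table. The 250 bases before it hold 3 CpGs and no TATAAA, and lie outside the measured window.

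For H3K4me3, 2 of 10 members had a value in all 4 lines (31.2% of all listed genes), 4 in some lines and 4 in none (50.5% of all genes had none). A gene without a called peak has no value in the table, which is not a measurement of 0. Each library is a bulk sample, so fewer marked cells and less mark per cell cannot be told apart. Fn1 (chromosome 1, 71585520 to 71653200, minus strand) had 3.89, 4.16, 5.44 and 4.53 RPKM in PTC11, PTC12, TTF1 and TTF4. At Fn1 the TTF lines were both higher than the PTC lines, 4.99 ± 0.646 RPKM (SD, n = 2) against 4.02 ± 0.191 (SD, n = 2). The antisense gene Apol7d overlaps the start of Fn1 and carries the same H3K4me3 value in 3 lines, so the peaks there cannot be assigned to either gene. Thy1 (chromosome 9, 44043384 to 44048579, plus strand) had 2.67, 4.85, 4.06 and 3.39 RPKM in PTC11, PTC12, TTF1 and TTF4, and its TTF lines lay between its PTC lines.

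Pdgfra (chromosome 5, 75152292 to 75198215, plus strand) had no H3K4me3 value in PTC11 and 3.51, 3.74 and 3.72 RPKM in PTC12, TTF1 and TTF4, the narrowest spread of the members with a value in more than 2 lines. Pdgfrb, Fbn1 and Lox shared 1 pattern, with a value in PTC12 and TTF1 only, a pattern found at 4.51% of all genes. Pdgfrb (chromosome 18, 61045150 to 61085061, plus strand) had 3.10 RPKM in PTC12 and 2.60 in TTF1. Fbn1 (chromosome 2, 125300594 to 125507993, minus strand) had 3.20 and 4.66 RPKM, and Lox (chromosome 18, 52516067 to 52529867, minus strand) had 4.31 and 3.86. The pattern joins 1 line of each origin, and PTC12 and TTF1 were also the lines with a value at the most genes. Fbn1 is overlapped by Gm9913 on the other strand, which had H3K4me3 in all 4 lines at 3.38, 3.83, 4.66 and 3.22 RPKM and shares its TTF1 value with Fbn1. Dcn, Lum, S100a4 and Postn had no value in any line, TTF lines included.

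For H3K36me3 over the gene body, 6 of 10 members had a value in all 4 lines (38.7% of all genes), and Postn (chromosome 3, 54361109 to 54391037, plus strand) had neither this mark nor H3K4me3 in any line. Fn1 reached the highest single level among the members, 7.01 RPKM in PTC12, against 4.55 in TTF4, 2.10 in PTC11 and 1.66 in TTF1. TTF1 was the lowest line at each of the 6 genes, as at 84.6% of all genes. PTC12 and TTF4 both lay above PTC11 and TTF1 at 5 of these 6 genes and at 93.6% of all genes, so the spread within each origin was set mostly by this gap between pairs of lines.

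Pdgfra was the exception among the 6. Its levels were 1.58 and 3.35 RPKM in PTC11 and PTC12 and 1.35 and 1.38 in TTF1 and TTF4, so that the origins did not overlap (1.37 ± 0.0241 RPKM against 2.47 ± 1.25, SD, n = 2 each). In TTF4 that value stood at the 5.46th percentile of the genes with a value in the line, against the 67.7th in TTF1. Its fellow receptor Pdgfrb had 1.50, 3.12, 1.26 and 3.58 RPKM in PTC11, PTC12, TTF1 and TTF4, with PTC and TTF lines interleaved. Fbn1 had 1.83, 3.98, 1.19 and 3.21 RPKM, also interleaved. Lox had 1.05 RPKM in PTC11, 5.08 in PTC12 and 4.05 in TTF4 and was listed at 0 in TTF1.

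The proteoglycan genes Dcn and Lum lie next to each other on chromosome 10 (97479609 to 97518143 and 97565128 to 97572703, both on the plus strand), 46985 bp apart. Without a called H3K4me3 peak, Dcn still had H3K36me3 in all 4 lines, 2.17, 2.46, 1.55 and 4.74 RPKM in PTC11, PTC12, TTF1 and TTF4. Dcn was highest in TTF4 and lowest in TTF1, which both came from fibroblasts. Lum had 1.56, 3.80 and 1.90 RPKM in PTC11, PTC12 and TTF1 and no value in TTF4. Thy1 had 1.19, 1.59 and 1.08 RPKM in the same 3 lines and none in TTF4. S100a4 (chromosome 3, 90603771 to 90606045, plus strand) had 0.967 RPKM in PTC11 and 0.474 in TTF1 and none in the other lines. H3K36me3 without H3K4me3 in any line was found at 3 of 10 members (Dcn, Lum and S100a4) and at 23.9% of all genes. H3K27me3, a mark of repressed genes, had a value at 11 to 144 genes per library and at no member in any of the 4 libraries, both of whose PTC libraries are labelled as line PTC11.

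**Figure D1:**
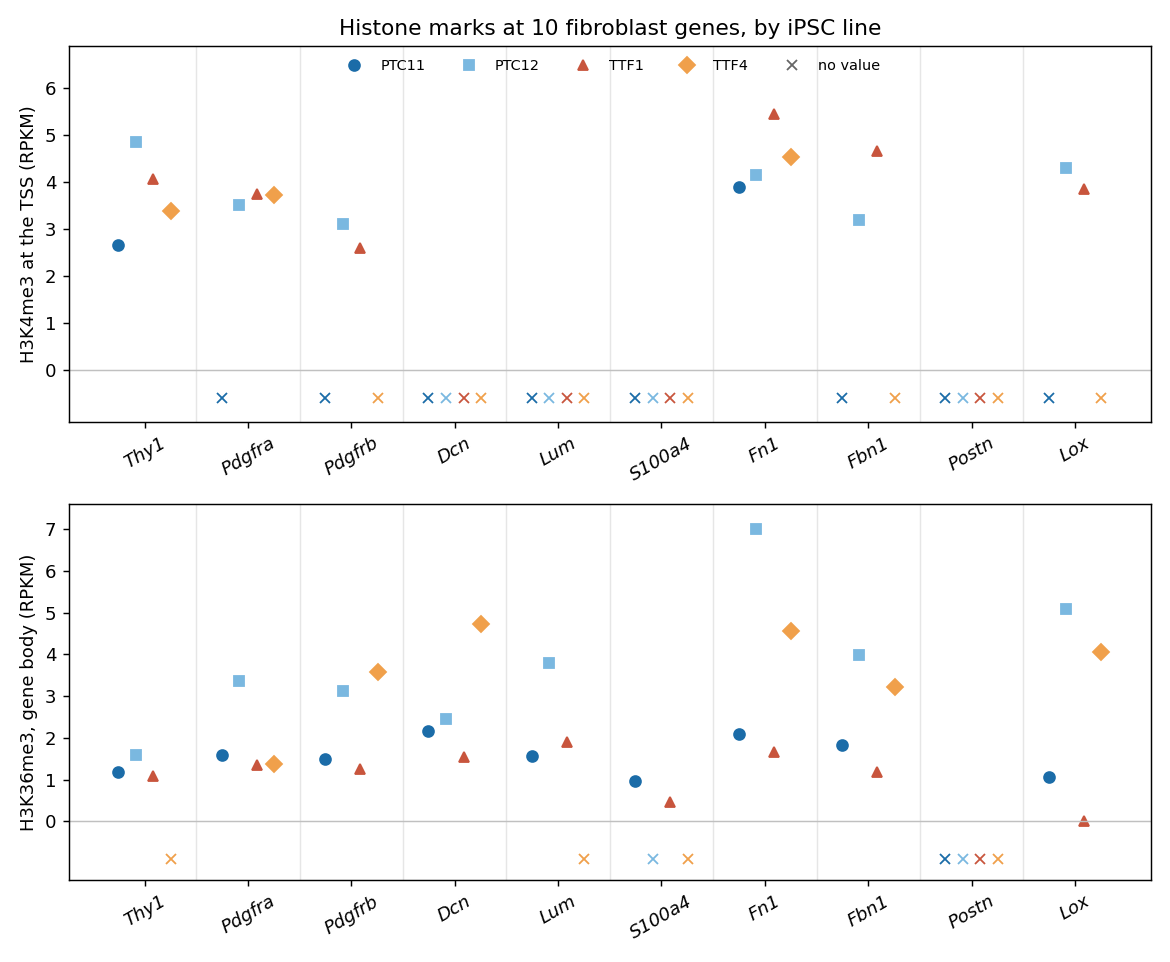
H3K4me3 at the start site (top) and H3K36me3 over the gene body (bottom) in RPKM for each of the 10 genes, with 1 point per iPSC line and a cross below 0 where a line had no value. Dcn, Lum, S100a4 and Postn have crosses in all 4 lines for H3K4me3, Fn1 has both TTF lines above both PTC lines, and TTF1 is the lowest H3K36me3 point at every gene with a value in all 4 lines.

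CpG methylation was read at all 10 members in all 4 lines, as the fraction of methylated CpGs within 1000 bp of the start. That start is not the only one of every member. In GENCODE M21, coding transcripts of Dcn and Pdgfra also start 2758 and 3607 bp from it, outside the measured window. By mean over the 4 lines the order was Fn1 (0.0501), Pdgfra (0.0885), Thy1 (0.151), Lox (0.332), Pdgfrb (0.451), Dcn (0.461), S100a4 (0.613), Postn (0.634), Lum (0.702) and Fbn1 (0.740). Neighbours in this order overlapped in their ranges over the lines. Fn1, Pdgfra and Thy1 stayed below every value of the 6 genes from Pdgfrb upwards, and Lox spanned both sides.

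At Fn1 the fractions were 0.00683, 0.0228, 0.0196 and 0.151 in PTC11, PTC12, TTF1 and TTF4. Pdgfra had 0.0819, 0.0674, 0.110 and 0.0948 in the same order of lines and the narrowest range of the members. It was the only member besides Lox at which both TTF fractions, as deposited, lay above both PTC fractions. Gm42802 and Gm42803, which overlap Pdgfra on the other strand, had fractions of 0.00671 to 0.138 over the lines, and Mir7025, further inside Pdgfra, had 0.469 to 0.853. Thy1 had 0.0632, 0.255, 0.0357 and 0.250, so that 1 line of each origin was low and 1 higher. Pdgfrb, at 0.337, 0.454, 0.349 and 0.664, was more methylated than Pdgfra in every line.

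Dcn, Lum, S100a4 and Postn had no H3K4me3 in any line. Dcn had fractions of 0.277 and 0.454 in the PTC lines and 0.380 and 0.734 in TTF1 and TTF4. Its neighbour Lum had 0.667, 0.810, 0.490 and 0.841, above Dcn in every line. S100a4 had 0.616, 0.486, 0.470 and 0.880, and Postn had 0.570, 0.758, 0.395 and 0.813. Gm42674, a gene on the same strand that overlaps the start of S100a4, had 0.728, 0.739, 0.586 and 0.842. TTF1 was the least methylated line and TTF4 the most methylated at Lum, S100a4 and Postn, so the widest gap at these 3 genes lay between the TTF lines. TTF4 was the highest line at 8 of 10 members and at 75.4% of all genes.

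Fbn1 had H3K4me3 in 2 lines and high methylation, 0.676, 0.769, 0.591 and 0.926 in PTC11, PTC12, TTF1 and TTF4. The start in the table is at 125507993, while RefSeq places it at 125506438, 1555 bp further along the gene, and GENCODE M21 has a coding transcript starting at or near each of these places. None of the 250 bases before the RefSeq start falls within the measured window, although they hold 13 CpGs, more than in 68.5% of promoters. The methylation window of Gm9913, which lies beyond the RefSeq start inside Fbn1 and holds 91 CpGs, had lower fractions of 0.0575, 0.442, 0.250 and 0.468. The fractions listed for Fbn1 therefore describe the upstream start and not the RefSeq start. Per the paper, H3K4me3 was averaged over a wider stretch around the listed start, which takes in the RefSeq start. The H3K4me3 and the methylation listed for Fbn1 therefore need not come from the same start.

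**Figure D2:**
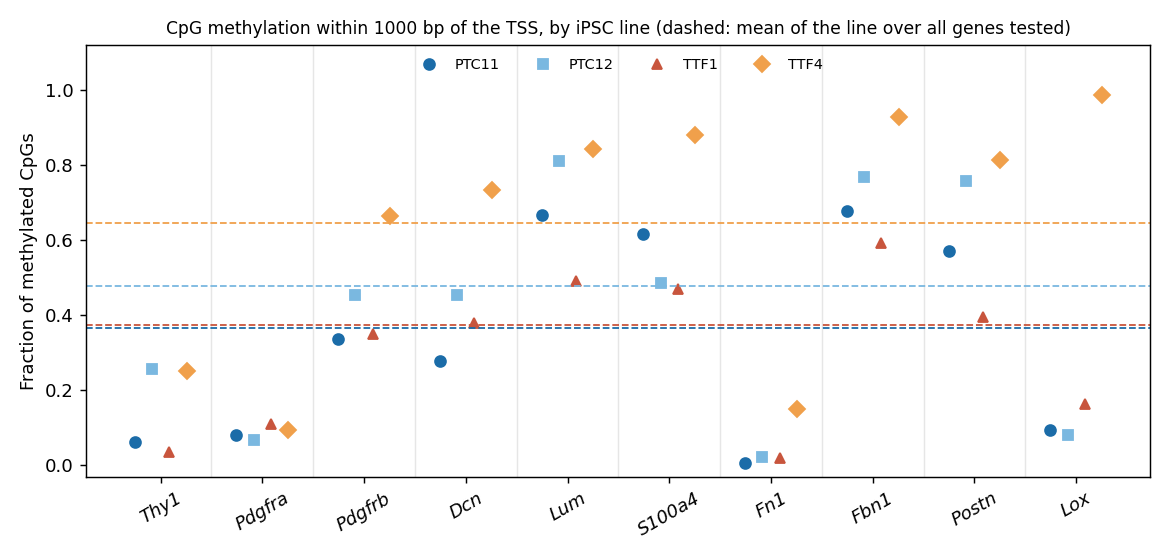
Fraction of methylated CpGs within 1000 bp of the start of each gene, as deposited, with 1 point per iPSC line and a dashed line at the mean of that line over the 50657 genes tested. Fn1, Pdgfra and Thy1 lie below the mean of every line, and Lox lies at 0.986 in TTF4 and between 0.0823 and 0.164 in the other lines.

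Methylation and H3K4me3 followed CpG content among the members. The 6 genes with H3K4me3 in at least 1 line had 36 to 102 CpGs, and the 4 genes without it had 13 to 21. The same division was seen over all genes, since 93.7% of the 16945 genes with at least 36 CpGs and 7.52% of the 12962 genes with at most 21 had H3K4me3 in at least 1 line. Across the 10 members, Spearman's rho between CpG count and mean fraction was -0.78, and across 33685 genes it was -0.76. These points are genes that share the same 4 libraries and are not independent. Genes with at least 36 CpGs had a median mean fraction of 0.155. Of the 6 members in that class, 3 lay above it, the same share as in the class, since a median divides it evenly. These were Fbn1 at 0.740, Pdgfrb at 0.451 and Lox at 0.332. Pdgfrb and Fbn1 were above 0.3 in every line, and Lox was above 0.2 in TTF4 only.

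**Figure D3:**
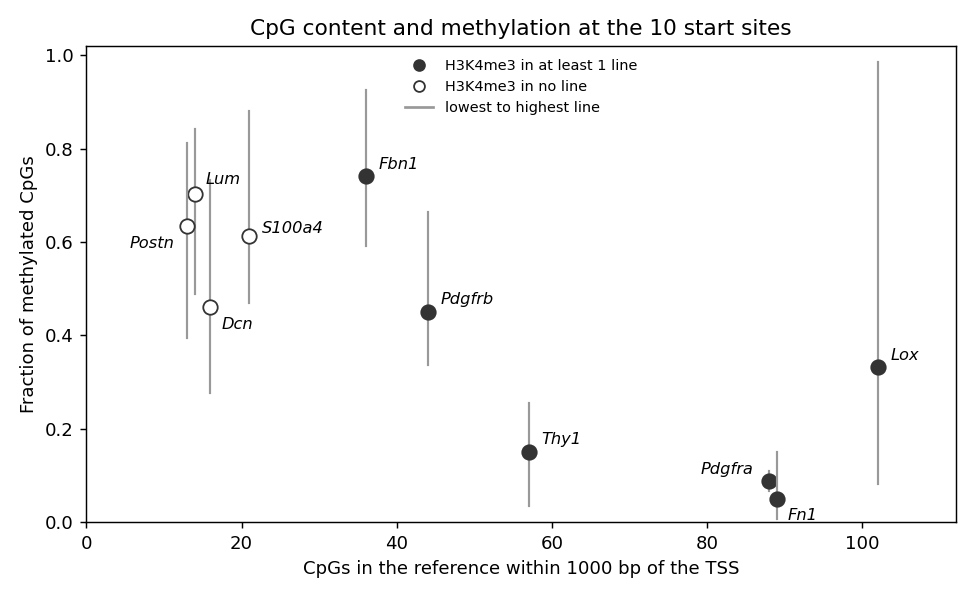
CpGs in the reference sequence within 1000 bp of each start (horizontal) against the fraction of methylated CpGs (vertical), with a point at the mean of the 4 lines and a bar from the lowest to the highest line. Open points, the 4 genes without H3K4me3 in any line, all lie at 21 CpGs or fewer, and the bar of Lox is the longest.

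At Lox the methylated fraction was 0.986 in TTF4, against 0.0944 in PTC11, 0.0823 in PTC12 and 0.164 in TTF1. The start was thus almost fully methylated in TTF4 and below 0.2 in the other lines, including the other line from fibroblasts. The gap between TTF4 and the next line, 0.822, ranked 31st of 50657 genes, while the median gap over all genes was 0.110 and 3.01% of genes had a gap of at least 0.5. Within TTF4, Lox stood at the 94.8th percentile of methylation, against the 12.8th to the 28.4th in the other lines. Lox had no H3K4me3 value in TTF4, but it had none in PTC11 either, where methylation was low. H3K36me3 over its body was 4.05 RPKM in TTF4.

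The region around Lox was compared in the same lines. The non-coding gene Gm41724 overlaps Lox on the other strand and starts at 52528661, so that its window shares part of that of Lox. Its fractions were 0.229, 0.195 and 0.120 in PTC11, PTC12 and TTF1 and 0.961 in TTF4, the same pattern. The next genes on either side did not show it to that degree. Srfbp1, 24136 bp away, had 0.108, 0.174, 0.113 and 0.358, and Zfp474, 86048 bp away, was methylated in all lines at 0.785, 0.801, 0.635 and 0.922.

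Of the other lysyl oxidases, Loxl1 had 0.215, 0.160, 0.0284 and 0.876 in PTC11, PTC12, TTF1 and TTF4, and Loxl4 had 0.257, 0.301, 0.238 and 0.851. The gap between TTF4 and the next line was 0.661 at Loxl1 and 0.550 at Loxl4. Loxl3 had 0.126, 0.216, 0.163 and 0.217, with no such gap, and Loxl2 had a value in the PTC lines only. Loxl1 kept H3K4me3 in TTF4, at 2.75 RPKM, where the other lines had 2.34 (PTC11), 4.54 (PTC12) and 5.45 (TTF1). Gaps of this kind also occurred outside the lysyl oxidases, among genes named below for the largest methylation difference of their list. Ltbp2 had 0.782 in TTF4 against 0.0555 to 0.0907 in the other lines. Spp1 had 0.899 against 0.0556 to 0.357, and Pdgfd had 0.955 against 0.395 to 0.562. At Kera (0.676 against 0.623) and Itgb3 (0.277 against 0.251) TTF4 was closer to the highest other line. S100a11 had 0.226 in TTF4, below TTF1 at 0.323.

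**Figure D4:**
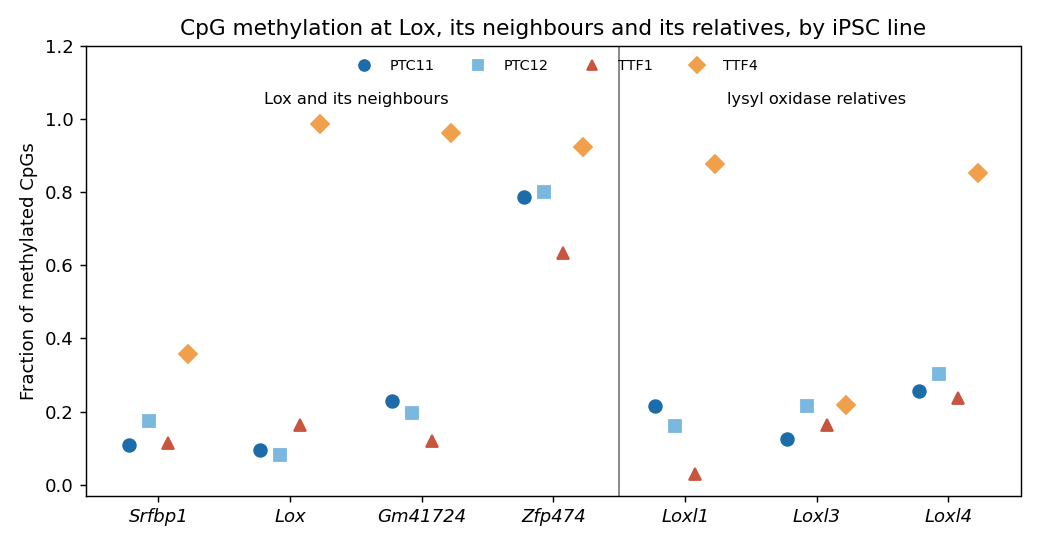
Fraction of methylated CpGs at the start of Lox and its 3 nearest or overlapping genes (left of the vertical line) and of 3 other lysyl oxidases (right), with 1 point per iPSC line. TTF4 stands far above the other lines at Lox, Gm41724, Loxl1 and Loxl4 and close to PTC12 at Loxl3.

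The comparison of origins asked whether iPSCs made from fibroblasts kept a mark of that origin at fibroblast genes. It was made with limma over all genes with a value in all 4 lines, with Benjamini-Hochberg adjusted p-values. Histone marks were compared on log2(RPKM + 1), which understates changes of low values, and methylation as the fraction minus the mean of its line, since the lines differed in overall methylation. For H3K4me3, 0 of 2 members tested passed an adjusted p of 0.05 (0 at an unadjusted 0.05), against 0.481% of 13709 genes. For H3K36me3, 0 of 6 members passed (0 at an unadjusted 0.05), against 0.112% of 17039 genes. For methylation, 0 of 10 members passed (1 at an unadjusted 0.05, Lox), against 0.00395% of 50657 genes. Over all genes tested, 0.977% in H3K4me3, 0.681% in H3K36me3 and 4.74% in methylation were under an unadjusted 0.05. Over 2 lines against 2, the exact two-sided permutation test of a single gene cannot give a p below 0.33.

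The intervals were wide. For H3K4me3 the TTF minus PTC difference was 0.25 on the log2 scale at Fn1 (95% interval -0.59 to 1.09, limma adjusted p = 1) and 0.03 at Thy1 (-0.65 to 0.70). Fn1 was the only 1 of these with both TTF lines on one side of both PTC lines, as at 8.21% of genes. For H3K36me3 the difference was -0.50 at Pdgfra (-2.04 to 1.03, limma adjusted p = 1), the only member of 6 with its origins apart, as at 3.5% of genes. At the other 5 genes it ran from -0.65 at Lox to 0.21 at Dcn, and each interval included both a 2-fold increase and a 2-fold decrease except at Lox, where it reached from -2.19 to 0.88. The median over the 6 members was -0.34, beside -0.14 over all genes tested.

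For methylation, the centred TTF minus PTC difference at Lox was 0.400 (95% interval 0.0996 to 0.700, limma adjusted p = 0.825), with no overlap of the origins. That value was carried by TTF4. Without TTF4 it was 0.124, and without TTF1 it was 0.675 with a limma adjusted p of 5.65e-05, a fit in which TTF4 alone stands for its origin and its spread is taken from the PTC lines. Differences at the other 9 members ran from -0.160 at Lum to 0.104 at Dcn, each with an interval that included 0. At starts with little methylation, centring subtracts more from TTF4 because the mean of that line was high. Fn1 had its highest fraction in TTF4 as deposited (0.151) and its lowest there after centring (-0.493). Pdgfra and Thy1 were also lowest in TTF4 after centring, so the differences at these 3 genes include this shift. After centring, both TTF lines lay on one side of both PTC lines at 6 of 10 members, above at Dcn and Lox and below at Thy1, Lum, Fbn1 and Postn, against 27.8% of genes. As deposited, this held at 2 of 10, against 23.9% of genes, and the members were Pdgfra and Lox, so which genes separated by origin depended on the centring. The median over the members was -0.0335, beside -0.0100 over all genes tested.

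**Figure D5:**
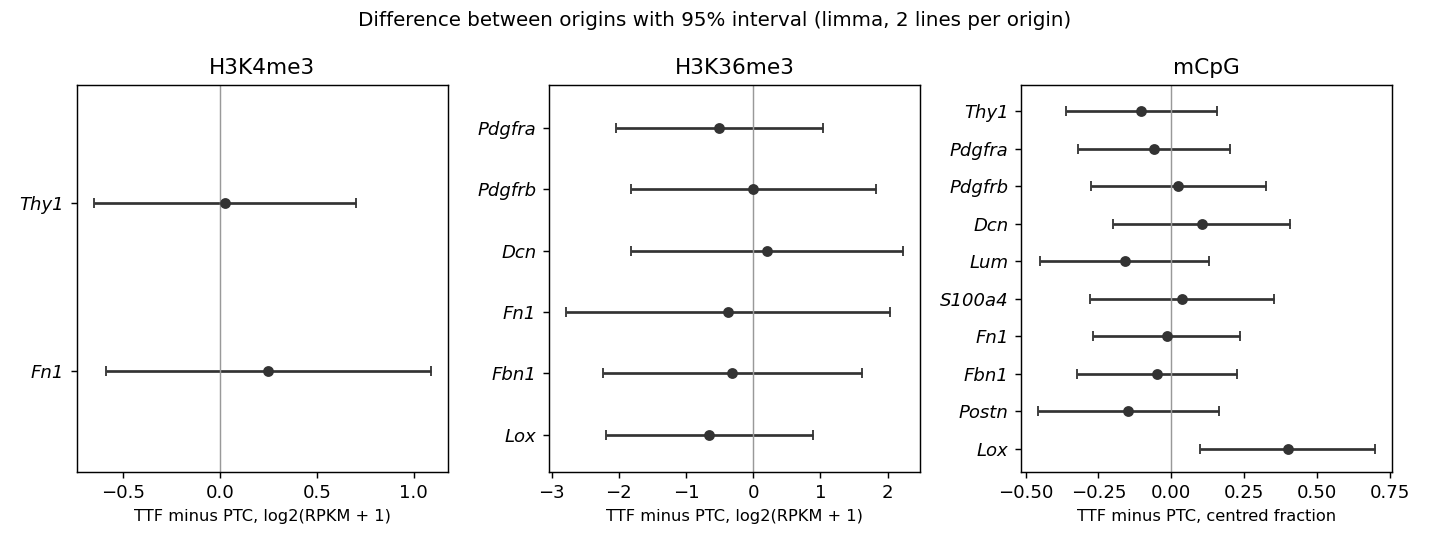
TTF minus PTC difference (point) with its 95% interval from limma (bar) for each member with a value in all 4 lines, on the log2(RPKM + 1) scale for H3K4me3 and H3K36me3 and as the centred fraction for CpG methylation. Every interval includes 0 except that of Lox in methylation, whose adjusted p was 0.825.

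Genes related to the members were taken from 7 lists holding 52 genes in all. None was called by limma at an adjusted p under 0.05, to be read beside the shares of all genes given above. For H3K4me3 24 were tested (0 at an unadjusted 0.05), and for methylation 51 (0 at an unadjusted 0.05). For H3K36me3 39 were tested (1 at an unadjusted 0.05, Loxl2). The H3K36me3 levels of Loxl2 were low, at 0.0984, 0.159, 0.726 and 0.346 RPKM in PTC11, PTC12, TTF1 and TTF4. Each was below the median of its line. The 8 other small leucine-rich proteoglycans resembled Dcn and Lum in that 0 of 8 had H3K4me3 in any line, and their median methylation ran from 0.515 in TTF1 to 0.760 in TTF4. Their largest TTF minus PTC differences were at Bgn in H3K36me3 (-0.37 on the log2 scale) and at Kera in methylation (-0.186). In contrast, all 5 fibronectin receptor genes (Itga5, Itgav, Itgb1, Itgb3 and Sdc4) had H3K4me3 in all 4 lines, as Fn1 had, with median methylation from 0.0431 in TTF1 to 0.166 in TTF4. Their largest differences were 0.31 at Itga5 in H3K4me3, -0.81 at Itgb1 in H3K36me3 and -0.106 at Itgb3 in methylation.

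Of the 4 PDGF ligand genes, 3 had H3K4me3 in all 4 lines and Pdgfd, like Pdgfrb, had it in PTC12 and TTF1 only. The largest differences in that list were 0.24 at Pdgfc, -0.37 at Pdgfa and 0.117 at Pdgfd for H3K4me3, H3K36me3 and methylation. Of 15 elastic fibre and microfibril genes, 7 had H3K4me3 in all 4 lines, 7 in some and 1 (Mfap5) in none, and the largest differences were 0.34 at Ltbp1, -0.46 at Ltbp3 and 0.266 at Ltbp2 in the same order of assays. Fbn2, the other fibrillin gene listed, had H3K4me3 in all 4 lines and fractions of 0.0299, 0.0957, 0.0172 and 0.151. These were far below the fractions at the upstream start of Fbn1, and the RefSeq start of Fbn1 was not compared. Of 8 matricellular genes, 4 had H3K4me3 in all 4 lines and 4 in some, unlike Postn, with largest differences of -0.22 at Thbs1, -0.66 at Thbs2 and 0.202 at Spp1. Of 8 other S100 genes, 4 had H3K4me3 in all 4 lines, and S100a3 and S100a5, which flank S100a4, had none in any line. The largest differences there were 0.19 at S100a13, which shares its H3K4me3 values with S100a1, -0.29 at S100a16 and 0.160 at S100a11. For the lysyl oxidases they were 0.19 at Loxl1, 0.43 at Loxl2, from low levels, and 0.178 at Loxl4.

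Fn1 was the only member with a value in every line of all 3 assays. The gene nearest to it was sought among 8771 genes with all 12 values, matched between assays by identifier and version. A gene listed under differing versions was not searched. In within-line percentile the nearest was Pomt2, an enzyme of protein O-mannosylation, at a mean absolute difference of 6.72 percentile points.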

How the data were processed

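The authors aligned ChIP-seq reads to mm10 (Bowtie2 2.1.0 per the submitters' processing notes), called peaks against input (MACS2 2.0.10), counted reads in peaks, subtracted input and deposited RPKM values per gene, each the average over peaks near the start site (H3K4me3, H3K27me3) or in the gene body (H3K36me3). For DNA methylation the authors deposited the fraction of methylated CpGs within 1000 bp of the start site, averaged over sliding windows of nanopore calls. Both tables hold summaries without reads or coverage, so precision rests on the spread between 2 lines per origin. Lines were mapped by name, and 0 columns of values were left unmapped. Both H3K27me3 libraries of PTC belong to PTC11, so that mark was not tested.

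TTF and PTC lines were compared with limma 3.58.1 (R 4.3.3, lmFit, eBayes with a trend) over all genes with a value in all 4 lines, on log2(RPKM + 1) or the fraction minus the line mean, with Benjamini-Hochberg adjustment at 0.05. The script was tested on simulated data. Alternatives varied normalization, pseudocount, filters, missing values, centring, trend, pairing and each line left out. CpGs were counted in GRCm38.p6, with GENCODE M21 transcripts and RefSeq promoters. The members and lists were chosen with earlier results of these data known. Named beside the members were each list's gene with the largest difference per assay, genes overlapping a member, and the gene nearest to a member with all values. Mfap5, Esrrb, Fap, Fbn2 and the flanking or related genes of Lox and S100a4 were named after their values were seen.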

Additional observations from a re-analysis of the deposited data

How the results depend on the processing

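The count of genes called depended strongly on the setting, while 0 members were called in every histone setting and in every methylation setting but 1. For H3K4me3 (66 genes called by limma), quantile normalization, a minimum mean of 1 RPKM, missing values set to 0 and no variance trend each gave 0, log2(RPKM + 0.1) gave 102, and leaving out 1 line gave 59 to 108. For H3K36me3 (19 genes), the same 4 settings gave 0, log2(RPKM + 0.1) gave 44, and leaving out 1 line gave 1 to 31. For methylation (2 genes), no centring and quantile normalization gave 0, no variance trend gave 1, at least 1 line per origin gave 4, and leaving out 1 line gave 0 to 1019, with 0 to 1 members called (Lox, without TTF1). No line number is shared between origins. Under a replicate block of 2 pairs (TTF1 beside PTC11, TTF4 beside PTC12), 34 genes were called for H3K4me3, 167 for H3K36me3 and 27 for methylation.

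Of 170 values of members under the alternatives, 145 kept their direction and side of the threshold, 24 turned sign and 1 (Lox without TTF1) became significant. For methylation, Fn1 turned to 0.0390 and Pdgfra to 0.00600 under quantile normalization, where Pdgfrb was -0.0141, and without centring Fn1 was 0.0706, Fbn1 0.0365 and Pdgfra 0.0277. The difference at Lox without centring was 0.487, and 0 of 10 members, Lox included, were then under an unadjusted 0.05 in limma. With 1 line left out, H3K4me3 at Thy1 ran from -0.31 to 0.36, H3K36me3 from -1.06 to 0.31 at Fn1, from -1.82 to 0.52 at Lox, from -0.78 to 0.16 at Fbn1, from -0.51 to 0.51 at Pdgfrb and from -0.38 to 0.79 at Dcn, and methylation from -0.0861 to 0.0532 at Fn1, from -0.0833 to 0.157 at S100a4 and from -0.202 to 0.0837 at Pdgfra. H3K36me3 at Pdgfrb was -0.022 with log2(RPKM + 0.1). The causes were not tested. A coverage minimum for methylation was not run, since the fractions come without coverage, and depth could not be weighed.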
